A study of Betula luminifera with 4 samples.

Results

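The genes described here are phosphatases other than purple acid phosphatases, and extracellular ribonucleases of the kind that release phosphate from organic compounds. They were chosen by protein name alone: acid phosphatase 1 (neither purple nor phosphatidic), inorganic pyrophosphatase 1 or 2 (neither soluble nor vacuolar), phosphoethanolamine/phosphocholine phosphatase, extracellular ribonuclease, or ribonuclease S-. Of 76899 assembled genes, 11 carried such a name. They comprised 6 contigs named acid phosphatase 1, 1 named inorganic pyrophosphatase 2 (At1g17710), 3 named extracellular ribonuclease LE, and 1 named extracellular ribonuclease after a Bacillus protein (bsn). The choice used names and no level from the table.

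RNA was sequenced from Betula luminifera, a birch, using plants of the single clone G49# raised by tissue culture. CK plants received a nutrient medium with 1.25 mM KH2PO4, and LP plants received the medium without it, with K2SO4 as the source of potassium. All groups were 2 months old and had first had 2 weeks of normal medium and 2 weeks of deionized water. Roots and shoots of each medium gave 1 library each, 4 in all, and shoot RNA was an equal mixture from stem and leaf. How many plants went into a library, and for how long they were treated, is not stated in the labels, and all plants were of 1 clone.

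Plants that lack phosphate draw on phosphate bound in lipids, nucleic acids and small metabolites. In Arabidopsis, At1g17710 is a phosphatase of the haloacid dehalogenase type that acts on phosphoethanolamine and phosphocholine, the head groups freed when phospholipids are broken down, and its transcript is a known marker of phosphate starvation. S-like ribonucleases of the T2 family cut RNA outside the cell or in the vacuole, and ribonuclease LE of tomato is induced by phosphate starvation in cultured cells. Acid phosphatase 1 of tomato belongs to the family of plant class B-like acid phosphatases, which also holds the vegetative storage proteins of soybean.

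Since each group is a single library, replicate error could not be measured and nothing was tested, and every difference compares these 4 libraries. The size rule called a gene higher or lower if the larger of the values compared reached 1 TPM and the log2 ratio, taken after adding 1 TPM to both, was 1 or more in size. TPM are shares of the transcripts of a library, corrected for contig length, so levels of different contigs can be set side by side on that scale. Seed plant genes are those with an annotation match whose genus is not a listed alga, moss or other seedless plant. Without such a match, the protein name had to come from a listed seed plant. Matches outside plants were not screened out, and the group holds contigs named after yeast proteins. An example is DN30825_c0_g1 (APT1 of Candida albicans), at 0 TPM in CK roots and 6.10 in LP roots. Scaling was set by the 13038 seed plant genes that reached 1 TPM in every library. Their median log2 factors differed between LP and CK by -0.63 in roots and 0.11 in shoots. Between roots and shoots the factors differed by -0.11 under CK and -0.85 under LP. A scaled log2 ratio removes these shifts for these genes. Over all seed plant genes tested in roots, which include those low in 1 library, the median log2 ratio was 0.29 as deposited and 0.90 scaled. In bulk RNA, fewer cells of a type and less RNA per cell cannot be told apart.

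The shoot markers separated the tissues, whereas the root markers as a list did not. The most abundant RBCS1 contig, the small subunit of Rubisco, stood at 0.90 TPM in CK roots and 16.5 in LP roots, against 7979 in CK shoots and 4604 in shoots grown without phosphate. A Casparian strip membrane protein of the root endodermis (DN23757_c1_g1) stood at 94.3, 20.0, 0 and 0.08 TPM in the same order (CK roots, LP roots, CK shoots, LP shoots), and a 273 bp contig of that name (DN26966_c0_g1) at 28.7, 1.86, 0 and 13.1. Over 56 shoot marker contigs the summed level was 743, 4106, 51941 and 33019 TPM, with 27, 15, 4 and 4 contigs at 0, and over 18 root marker contigs it was 980, 327, 395 and 642 TPM, with 8, 3, 6 and 3 at 0. Of the shoot markers, 46 were lower in roots than in shoots under each medium, and 2 were higher under CK and 4 under LP. Of the root markers 6 were higher and 7 lower in roots under CK, and 5 and 7 under LP. The root libraries differed in breadth, with 26711 genes above 0 in CK and 56647 in LP, against 39046 and 50435 in shoots. Contigs with no protein match took 29.0% of TPM in CK roots and 43.3% in LP roots. In CK roots, 38 of 4147 seed plant contigs of at least 1000 bp that reached 10 TPM in the other libraries were listed at 0, against 2 of 4778 in LP roots. The part of these differences in the results on members was not tested.

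In shoots 1 member rose among several that fell. At1g17710 rose, 5 members fell, namely 2 acid phosphatases, both contigs of ribonuclease LE component DN21511, and bsn, and 5 did not pass the rule. Across all 53571 genes tested, 40.1% were called higher and 23.0% lower, and 28.2% and 20.9% of the seed plant genes. The median log2 ratio of the 11 members was -0.43, against 0.39 over all genes tested and 0.13 over seed plant genes. Scaling gave the same counts of 1 higher and 5 lower, against a background of 38.7% and 23.9%, or 26.3% and 22.1% among seed plant genes.

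In roots only 6 of the 11 members reached 1 TPM in either library. At1g17710 and the acid phosphatase DN27018_c2_g1 were lower without phosphate, the acid phosphatase DN24689_c0_g3 was higher, and 3 did not pass. The background was 64.2% higher and 22.4% lower over 58668 genes, and 43.0% and 32.4% among seed plant genes. After scaling, At1g17710 no longer passed and the acid phosphatase DN28914_c2_g2 was called higher, which gave 2 higher and 1 lower against a background of 67.5% and 18.4%, or 48.9% and 25.0% among seed plant genes. The median of the 6 was -0.16, and 0.41 when scaled. Which members passed the minimum depends on the library where they are high, so these figures describe the tested members only.

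**Figure D1:**
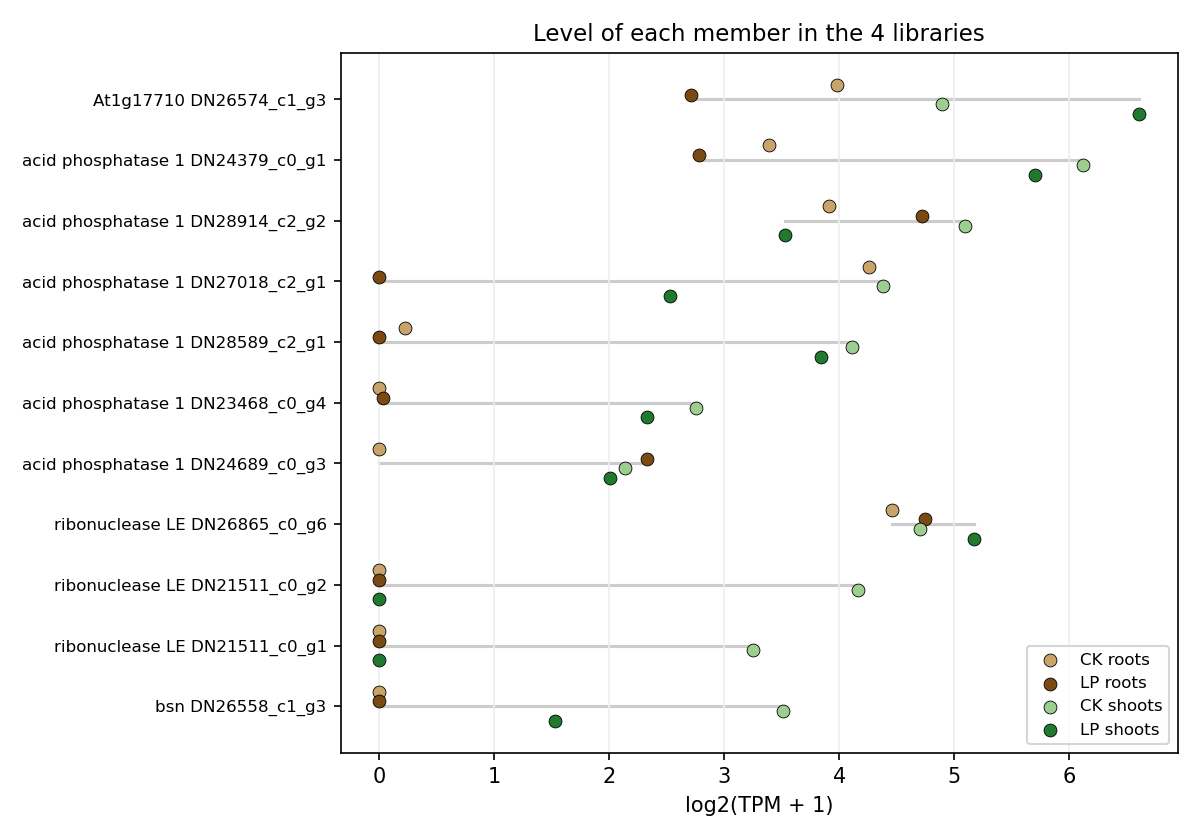
Level of each of the 11 members on a log2(TPM + 1) axis, with 1 point per library and a grey line from the lowest to the highest library. At1g17710 has its highest point in LP shoots (96.8 TPM), the acid phosphatase DN24379_c0_g1 has both shoot points to the right of both root points, and the ribonuclease LE contig DN26865_c0_g6 has all 4 points between 21.1 and 35.0 TPM.

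At1g17710, the head group phosphatase, was a 982 bp contig with 1 transcript and a plant putative phosphatase domain (DN26574_c1_g3). Its level was 14.8 TPM in CK roots and 5.54 in LP roots, and 28.8 in CK shoots and 96.8 in LP shoots. LP shoots were highest and LP roots lowest, so the direction without phosphate was opposite in the tissues. In shoots it was 3.37-fold higher without phosphate (log2 ratio 1.72, scaled 1.60). In roots it was 2.68-fold lower (log2 ratio -1.28), and its scaled ratio of -0.73 did not pass the rule.

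The fragments behind these levels can be estimated, because at a given contig length the TPM values are multiples of what 1 fragment adds. By this estimate 433, 251, 670 and 3081 fragments lay behind the 4 values of At1g17710. The 95% exact counting interval was 3.09 to 3.66 for the rise in shoots and 2.29 to 3.14 for the fall in roots. These intervals take each fragment as a separate molecule and cover counting error only, not variation between plants or error in the estimated fragments. Counting intervals are limited to the 6 members with a single transcript, since a gene with several transcripts has no single step of this kind. They are given only for ratios with more than 3 fragments behind both values, so the DN21511 contigs have none.

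Between tissues At1g17710 was 1.94-fold lower in roots than in shoots under CK (interval 1.71 to 2.19), with a log2 ratio of -0.91 that did not pass the rule. Without phosphate it was 17.5-fold lower in roots as deposited (interval 15.4 to 20.0, log2 ratio -3.90). Scaled, that log2 ratio was smaller in size, at -3.13, and the interval does not cover this shift between libraries. The order of the levels was therefore LP shoots, CK shoots, CK roots and LP roots, and no neighbours in it had overlapping counting intervals.

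The other contig with the same phosphatase domain carried the name inorganic pyrophosphatase 3 (At4g29530), which the choice of names left out, and it was picked after its values were seen. It stood at 11.2, 1.66, 5.85 and 5.34 TPM in CK roots, LP roots, CK shoots and LP shoots. It was lower in roots without phosphate (log2 ratio -2.19, scaled -1.75), and in shoots its ratio of -0.11 did not pass the rule.

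The genes whose pattern over the 4 libraries was most like that of At1g17710 were taken from 15443 named seed plant genes, by the distance between log2(TPM + 1) profiles centred on their own mean. Nearest was WAK2, a wall-associated receptor kinase (distance 0.13), then PAP27, named as a probable inactive purple acid phosphatase (0.30), and PDR1, an ABC transporter of the pleiotropic drug resistance type (0.36). PAP27 stood at 5.34, 1.23, 11.03 and 43.7 TPM in CK roots, LP roots, CK shoots and LP shoots. PDR1 stood at 9.39, 2.46, 16.5 and 44.7 TPM, and WAK2 lower throughout, at 2.03, 0.17, 4.47 and 15.6 TPM. All have LP shoots highest and LP roots lowest, and 10 genes lay within a distance of 0.5. A likeness over 4 libraries is a description with no error attached.

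The enzymes that make and use the same head groups were listed by name, 16 contigs in all. In shoots 15 were tested, of which 3 were higher and 6 lower without phosphate, with a median log2 ratio of -0.75. There 40.1% of all genes tested were higher and 23.0% lower, and 28.2% and 20.9% of seed plant genes. In roots 11 were tested, of which 4 were higher and 5 lower (median -0.05), or 4 and 2 after scaling (median 0.48). The shares as deposited were 64.2% and 22.4% of all genes tested in roots, and 43.0% and 32.4% of seed plant genes. Phosphoethanolamine N-methyltransferase makes phosphocholine by methylating phosphoethanolamine, and its 4 contigs summed to 39.2 TPM in CK roots and 0.03 in LP roots, and 266 in CK shoots and 51.6 in LP ones. The 4 contigs fell in shoots, opposite to At1g17710. All 4 carried the name NMT1, and whether they come from 1 gene was not tested. The longest (DN28456_c0_g2, 1830 bp) went from 177 to 30.0 TPM in shoots (log2 ratio -2.52) and from 34.4 to 0.03 TPM in roots. The others were fragments of 222 to 380 bp, and DN28456_c0_g1 shares the component of the longest.

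Choline kinase, which phosphorylates free choline, summed over 3 contigs to 45.4, 38.8, 14.5 and 41.1 TPM in CK roots, LP roots, CK shoots and LP shoots. In shoots 2 of its contigs were higher without phosphate and none lower. The most abundant of these was a probable choline kinase 2 (DN25245_c1_g1), at 4.96 TPM in CK shoots and 17.6 in LP shoots, and it went the other way in roots, from 38.8 to 14.3 TPM. A second contig of that name (DN25203_c0_g4) rose in roots from 6.69 to 24.6 TPM. Ethanolamine kinase, with 2 contigs, summed to 29.8, 19.0, 19.3 and 9.83 TPM, and no contig of it passed the rule in shoots.

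The enzymes that activate the phosphorylated head group with CTP for lipid synthesis form the last group of the list. The ethanolamine-phosphate enzyme summed over 3 contigs to 9.68 TPM in CK roots and 6.24 in LP roots, and 145 in CK shoots and 69.8 in LP shoots. In shoots 2 of its contigs were lower and 1 higher, the latter a 231 bp fragment listed at 0 in the 3 other libraries (DN27182_c0_g2). The choline-phosphate enzyme, with 4 contigs, summed to 26.8, 59.4, 98.1 and 103 TPM, and none of its contigs passed the rule in shoots.

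**Figure D2:**
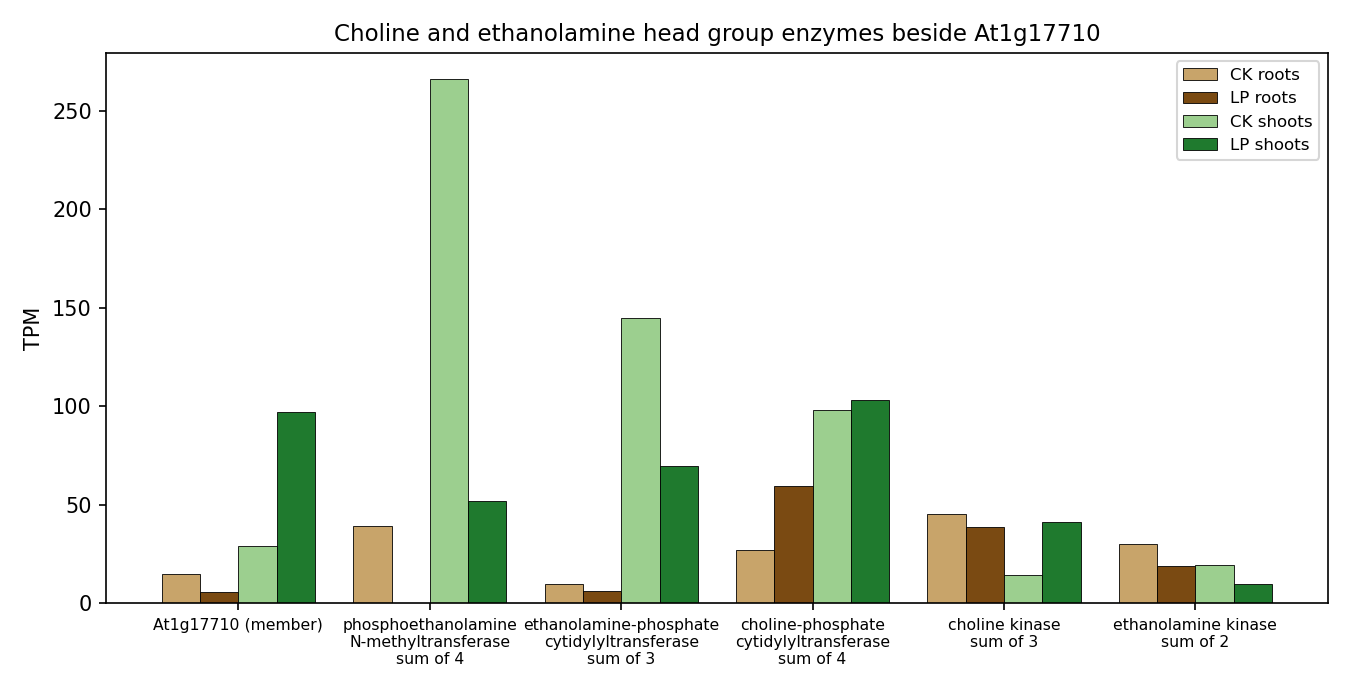
TPM of At1g17710 and of 5 head group enzymes (each the sum of its contigs) in the 4 libraries, as bars from 0. In shoots the bar of At1g17710 is taller in LP than in CK (96.8 against 28.8 TPM), as is choline kinase (41.1 against 14.5), while phosphoethanolamine N-methyltransferase is shorter (51.6 against 266).

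The 6 acid phosphatase 1 contigs made up the largest kind by number, and all carried the class B acid phosphatase domain. Their summed level was 41.8 TPM in CK roots and 35.2 in LP roots, and 147 in CK shoots and 86.7 in LP shoots. None was called higher in shoots without phosphate, 2 were lower and 4 did not pass, where 40.1% of all genes tested were higher and 23.0% lower. The contigs differed in where their RNA was found, and the largest share of the sum lay with a different contig in roots of each medium and in shoots.

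The most abundant acid phosphatase was DN24379_c0_g1 (1108 bp), named APS1 after the tomato gene. It stood at 9.49 TPM in CK roots and 5.88 in LP roots, and 68.4 in CK shoots and 51.0 in LP shoots. Both shoot libraries were far above both root libraries, and CK was above LP in each tissue. Roots were 7.21-fold lower than shoots under CK (interval 6.40 to 8.13) and 8.68-fold lower under LP (interval 7.69 to 9.82). The log2 ratio between tissues was -2.73 under CK (scaled -2.61) and -2.92 under LP (scaled -2.14). Without phosphate it was 1.34-fold lower in shoots (interval 1.26 to 1.43, log2 ratio -0.42), which did not pass the rule. In roots it was 1.61-fold lower (log2 ratio -0.61), and scaled the ratio was -0.06. Its share of the acid phosphatase sum was 46.6% in CK shoots and 58.8% without phosphate.

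A further APS1 contig, DN28914_c2_g2 (1601 bp, 9 transcripts), moved in opposite directions in the tissues between media, short of the rule in roots as deposited. It stood at 14.1 TPM in CK roots and 25.3 in LP roots, and 33.2 in CK shoots and 10.5 in LP shoots. Under CK it was higher in shoots, and under LP higher in roots. In shoots it was 3.16-fold lower without phosphate (log2 ratio -1.57, scaled -1.66). In roots its log2 ratio of 0.80 did not pass as deposited, while the scaled ratio of 1.41 did. Its share of the acid phosphatase sum was 33.6% in CK roots and 71.8% in LP roots, and 22.6% in CK shoots and 12.1% in LP shoots. Reads of related transcripts can be divided among its 9 forms and other contigs.

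The APS1 contig DN27018_c2_g1 (665 bp, 2 transcripts) stood at 18.1 TPM in CK roots and 0 in LP roots, and 19.9 in CK shoots and 4.76 in LP shoots. Between tissues under CK its log2 ratio of -0.13 did not pass the rule, and it was lower without phosphate in both tissues. In shoots it was 4.18-fold lower (log2 ratio -1.86, scaled -1.92). In LP roots it was listed at 0, so no fold is given. In CK roots it was the largest acid phosphatase, with 43.3% of the sum.

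A pair of shoot contigs of the same name showed little RNA in roots. DN28589_c2_g1 (836 bp, nearest to a Eucalyptus protein) stood at 0.17 TPM in CK roots and 0 in LP roots, and 16.2 in CK shoots and 13.4 in LP shoots. About 4 fragments lay behind the CK root value. In shoots it was 1.21-fold lower without phosphate (interval 1.04 to 1.42, log2 ratio -0.26). DN23468_c0_g4 (946 bp) stood at 0, 0.02, 5.76 and 4.02 TPM and was 1.43-fold lower in LP shoots (interval 1.11 to 1.85, log2 ratio -0.43). Neither passed the rule between media, and both passed it between tissues.

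The last acid phosphatase contig, DN24689_c0_g3 (496 bp, 3 transcripts), was the only member below 5 TPM in every library. It ranged from 0 in CK roots to 4.03 TPM in LP roots, and was called higher in LP roots. In shoots it stood at 3.39 TPM in CK and 3.02 in LP.

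Beyond the chosen names, 2 more contigs carried the class B acid phosphatase domain, and they were picked after their values were seen. At2g39920, an uncharacterized protein by name, stood at 15.8 TPM in CK roots and 5.58 in LP roots, and 26.4 in CK shoots and 47.2 in LP shoots. It was lower in roots without phosphate (log2 ratio -1.35), but not past the rule when scaled (-0.80), and its shoot ratio of 0.82 did not pass. DN23468_c0_g1 (461 bp), from the same assembly component as the member DN23468_c0_g4, stood at 0, 2.12, 4.38 and 7.71 TPM, with LP above CK in both tissues. Contigs of 1 component share sequence, so reads can be divided among them.

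**Figure D3:**
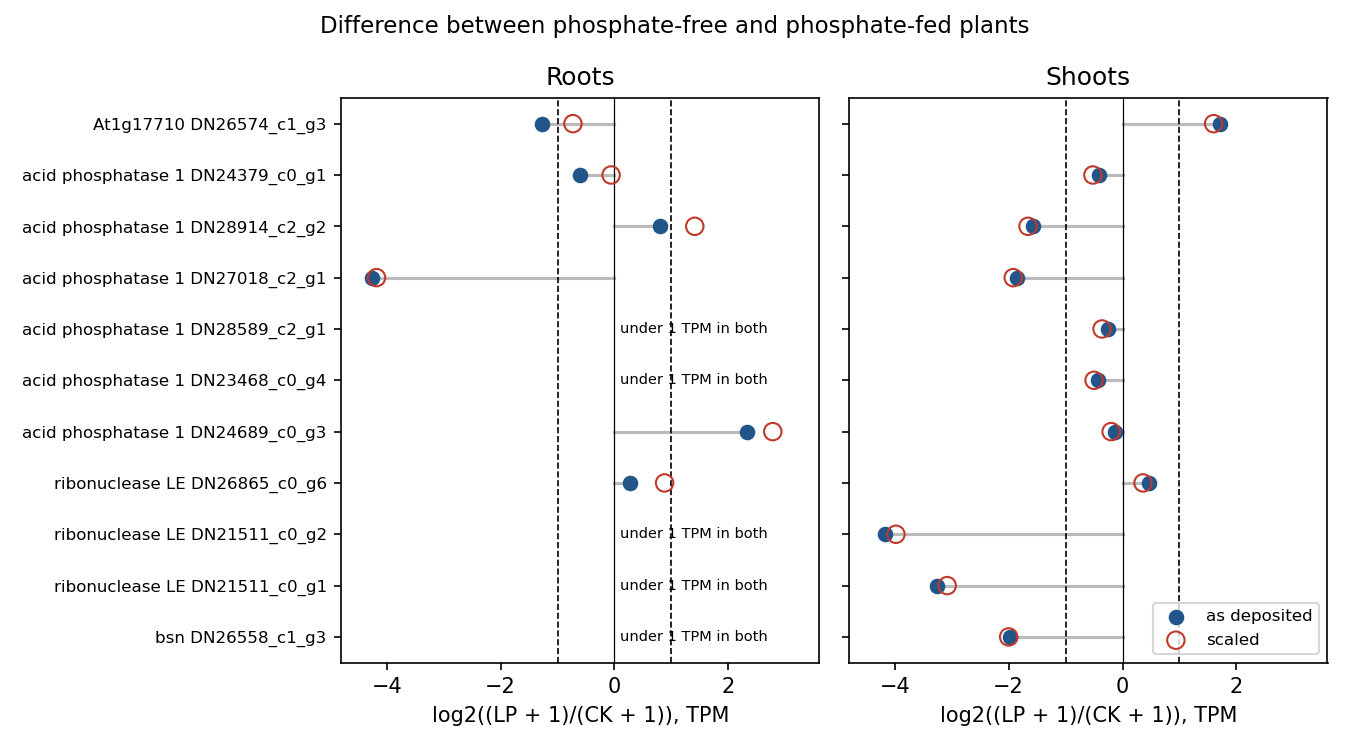
Log2 ratio of LP to CK for each member in roots (left) and shoots (right), as deposited (filled) and scaled by the median of seed plant genes (open), with dashed lines at the size rule of 1. In shoots At1g17710 (1.72) lies beyond the upper line and 5 members lie beyond the lower line, and in roots DN28914_c2_g2 crosses the upper line on scaling (0.80 to 1.41) while At1g17710 returns inside the lower line (-1.28 to -0.73).

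Among the ribonucleases, the contig with the most RNA was DN26865_c0_g6 (2495 bp, 7 transcripts), named ribonuclease LE, with a T2 domain and a Citrus protein as nearest match. It stood at 21.1 TPM in CK roots and 25.8 in LP roots, and 25.1 in CK shoots and 35.0 in LP shoots. All 4 levels were close to each other, and LP was above CK in each tissue. Its log2 ratio of LP to CK was 0.28 in roots (scaled 0.88) and 0.47 in shoots (scaled 0.36), and it passed the rule in none of the 4 comparisons. Between roots and shoots its ratio was -0.24 under CK and -0.43 under LP, and the latter was 0.39 when scaled, the opposite sign. With no replicate, this does not show that its level was the same.

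The other ribonuclease LE contigs were fragments of assembly component DN21511. DN21511_c0_g2 (528 bp, T2 domain) was listed at 17.0 TPM in CK shoots and at 0 in the other libraries, and DN21511_c0_g1 (363 bp, no domain named) at 8.52 TPM in CK shoots and at 0 in the others. About 148 and 32 fragments lay behind the CK shoot values. In LP shoots 3 fragments would be about 0.272 TPM for the former and 0.67 TPM for the latter, so both were called lower with no fold given. Whether both contigs come from 1 gene was not tested, and if they do they count as 1 observation.

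The bsn contig, DN26558_c1_g3 (577 bp, 2 transcripts), was listed at 0 in both root libraries, at 10.4 TPM in CK shoots and at 1.89 TPM in LP shoots. It was 5.52-fold lower in LP shoots (log2 ratio -1.98, scaled -2.00). Its domain is an endonuclease domain of bacterial type and not the T2 domain, so the label S-like ribonuclease does not apply to it by domain. Its closest protein in the deposited annotation was from the walnut Juglans.

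Set beside the other T2-domain contigs, the members were part of a family of 6 contigs, 2 of them members. The 4 others carried names the choice did not take in and were picked after their values were seen. The family sum was 68.1 TPM in CK roots and 56.0 in LP roots, and 127 in CK shoots and 91.2 in LP shoots. In shoots none of the 6 was called higher and 3 were lower, beside 40.1% and 23.0% of all genes tested. RNS2, the vacuolar ribonuclease of Arabidopsis, was the most abundant, at 47.1, 17.5, 49.2 and 52.4 TPM. It had a log2 ratio of 0.09 in shoots and -1.38 in roots, or -0.78 when scaled.

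RNS1, a secreted ribonuclease that phosphate starvation induces in Arabidopsis, was represented by a 338 bp fragment listed at 0, 0, 11.6 and 0 TPM in CK roots, LP roots, CK shoots and LP shoots. RNS3 stood at 0, 7.61, 23.9 and 3.79 TPM. A further S-like contig (DN38074_c0_g1) was above 0 in LP roots, at 5.07 TPM, and at 0 elsewhere. RNS2 and DN26865_c0_g6 were above 0 in all 4 libraries, and each of the other contigs of the family was listed at 0 in at least 1.

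**Figure D4:**
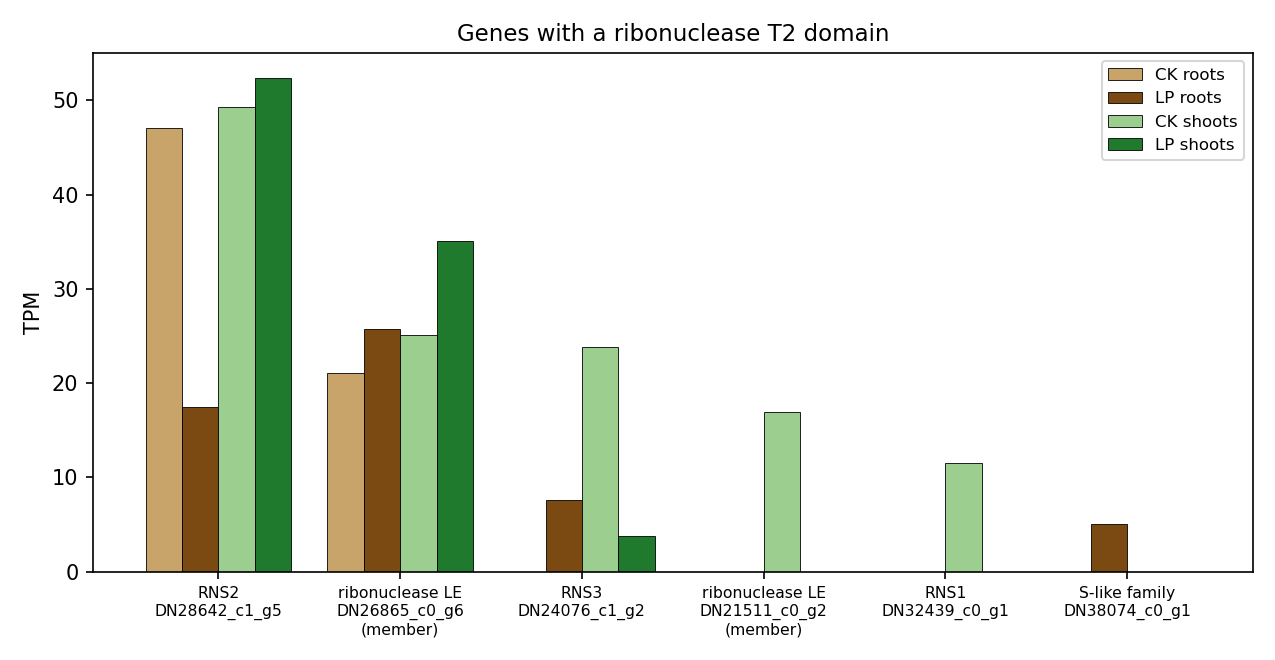
TPM of the 6 contigs with a ribonuclease T2 domain in the 4 libraries, as bars from 0, members marked. RNS2 and the member DN26865_c0_g6 have bars in every library, and the member DN21511_c0_g2 has a bar of 17.0 TPM in CK shoots alone.

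Between tissues, most members had more RNA in shoots. Under CK 8 of 11 were lower in roots, none was higher and 3 did not pass, where 54.2% of 42880 genes tested were lower in roots and 26.5% higher. Among seed plant genes 52.7% were lower. Under LP 9 members were tested, of which 6 were lower in roots and 1 higher, DN28914_c2_g2 (2.40-fold), against a background of 37.5% lower and 41.7% higher, and 51.5% lower among seed plant genes. The median log2 ratio of roots to shoots was -2.73 under CK and -2.30 under LP, against -1.20 and -1.09 over seed plant genes. Scaled, it was -2.59 and -2.05, against -1.10 and -0.35. Summed over the 11 members, the level was 77.7 TPM in CK roots and 66.5 in LP roots, and 237 in CK shoots and 220 in LP shoots. Shoot marker sums, given with the tissues, followed the same split between roots and shoots, and their part in it was not tested.

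Nearest patterns were also sought for the most abundant member of each other kind. For the acid phosphatase DN24379_c0_g1 the nearest were NEK2 (distance 0.11), atad1a (0.13) and PHB1 (0.14), with 152 genes within 0.5. For the ribonuclease DN26865_c0_g6 they were BTS (0.06), PCMP-H58 (0.09) and ALDH2B4 (0.10), with 383 within 0.5, and for bsn they were ATAD3B (0.04), HDG12 (0.11) and At1g12460 (0.13), with 117. The pattern of At1g17710 was shared by fewer genes at that distance than the other patterns. With 1 TPM added, such counts also depend on the level of a member and on how flat its pattern is.

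Other genes that take part in RNA, nucleotide and phosphate recycling were listed by name, and their medians can be set beside those over all genes tested, 0.39 in shoots and 2.31 in roots, or over seed plant genes, 0.13 and 0.29. Among 15 contigs of other ribonucleases and nucleases, 7 were higher and 3 lower in shoots without phosphate (median log2 ratio 0.13). Of 13 tested in roots, 5 were higher and 7 lower (median -1.38), or 6 and 6 when scaled (median -0.78). In shoots 40.1% of all genes tested were higher and 23.0% lower, and 28.2% and 20.9% of seed plant genes. In roots the shares were 64.2% and 22.4%, and 43.0% and 32.4%. BBD2, a bifunctional nuclease, rose in shoots from 20.9 to 55.6 TPM, and a Mini-ribonuclease 3 (mrnC) fell from 27.6 to 12.7. In roots a 421 bp bifunctional nuclease contig (DN27197_c1_g1) was called higher, at 0 in CK and 6.24 TPM in LP. A 255 bp fragment named ENDO1, an endonuclease (DN18157_c0_g1), was listed at 83.6 TPM in CK roots and at 0 in LP roots. A longer ENDO1 contig (DN23655_c3_g3, 622 bp) went the other way, from 0 to 8.04 TPM in roots.

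Nucleotide salvage recovers the bases and phosphate that RNA breakdown sets free, and its list held 57 contigs. Being drawn by name, the list also took in a proteasome-activating nucleotidase with an AAA domain (DN28216_c2_g1). In shoots 50 were tested, 15 higher and 9 lower (median log2 ratio -0.06), where 40.1% of all genes were higher and 23.0% lower. In roots 49 were tested, 20 higher and 18 lower (median -0.11), or 22 and 11 when scaled. The root shares as deposited were 64.2% and 22.4% of all genes. Among seed plant genes 28.2% were higher and 20.9% lower in shoots, and 43.0% and 32.4% in roots. A contig named after a 5'-nucleotidase domain protein of Dictyostelium (DN24773_c1_g1) rose in both tissues, from 43.3 to 131 TPM in roots and from 49.8 to 112 in shoots. Its annotated domain was Aa_trans, an amino acid transporter domain, and not a 5'-nucleotidase domain, so its place in this list rests on the name alone. Of the contigs named ADK2, an adenosine kinase, DN28555_c2_g1 fell in both, from 66.3 to 8.06 TPM in roots and from 54.2 to 20.8 in shoots. DN26415_c0_g1 fell from 57.1 to 7.64 TPM in roots, and its shoot log2 ratio of -0.48 did not pass the rule. DN26415_c0_g3 fell from 56.4 to 17.1 TPM in shoots, and its root ratio of -0.08 did not pass.

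The soluble and membrane pyrophosphatases that the choice of names left out numbered 21. In shoots 13 were tested, of which 1 was higher and 3 lower (median log2 ratio 0.06), or 0 and 3 when scaled. In roots 20 were tested, of which 10 were higher and 4 lower (median 1.09), or 12 and 3 when scaled (median 1.71). Only 17 of the 21 count as seed plant genes by the definition used here. Of the 16 of these tested in roots, 7 were higher and 3 lower (median 0.72). Those 7 took in short contigs (212 to 268 bp) above 0 in LP roots alone, at 8.67 to 19.3 TPM. They were DN38428_c0_g1, DN36460_c0_g1, DN16778_c0_g1, DN39813_c0_g1 and DN28888_c1_g4. From which organism they came was not tested. In roots 64.2% of all genes tested were higher and 22.4% lower, and 43.0% and 32.4% of seed plant genes. In shoots the shares were 40.1% and 23.0%, and 28.2% and 20.9%. A vacuolar proton pump driven by pyrophosphate (DN29081_c2_g1) rose in roots from 258 to 623 TPM, and another contig of that name (DN25840_c1_g7) went from 19.9 to 42.9 in shoots, which passed as deposited and not when scaled. An AVP1 contig (DN25949_c4_g2), a pump of the same kind, fell in both tissues, from 48.9 to 7.03 TPM in roots and from 131 to 48.1 in shoots. Another AVP1 contig (DN29070_c1_g7) went the other way, from 23.4 to 34.4 TPM in roots and from 43.3 to 87.4 in shoots. It fell short of the rule in both tissues.

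Of 51 purple acid phosphatase contigs, which were kept out by name, 48 were tested in shoots. There 23 were higher and 5 lower (median log2 ratio 0.92), or 20 and 5 when scaled (median 0.80). Across all genes tested in shoots 40.1% were higher and 23.0% lower as deposited, and 28.2% and 20.9% of seed plant genes. In roots 36 were tested, with 15 higher and 11 lower (median 0.64), or 18 and 10 when scaled (median 1.09), where 43.0% of seed plant genes were higher and 32.4% lower as deposited. A PAP3 contig (DN25762_c1_g1) rose in shoots from 6.74 to 105 TPM and a shorter one (DN24982_c3_g5) fell from 40.0 to 1.36, while in roots PAP26, named for its level in shoots, rose from 0.40 to 4.39 TPM and PAP15 fell from 118 to 4.90.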

How the data were processed

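Libraries were made from poly(A) RNA and read from both ends, per the labels' protocols, and the submitters' processing notes name cutadapt 1.9 and FastQC. For each assembled gene the authors deposited a TPM value per library, a contig length and protein annotations, per the file headers. No aligner or quantifier is stated in the labels, and neither genome coordinates nor sequences were used.

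Members were found by protein name in Swiss-Prot, or in the other annotation for 2 of them, and all 11 have a seed plant best match. Lists were matched by protein name, and the members and lists were chosen with earlier results of these data known. Every member of at least 5 TPM in some library is described with its 4 values, and of each list the contig past the rule in each direction with the highest value in any of the 4 libraries, which need not be those compared. Ratios were computed over the whole table with numpy 2.4.6 and pandas 2.3.3 on Python 3.11.15. The added 1 TPM shrinks the ratios of low genes. No p-value or standard error was computed, because a group is 1 library. TPM shares sum to a fixed total in each library, so RNA of other organisms lowers birch values. Scaled ratios use the median over 13038 seed plant genes.

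TPM keep no depth. The check of the fragment steps took low values of single-transcript contigs of at most 600 bp. Within 0.0065 TPM, 84.9% (CK roots), 78.7% (LP roots), 75.1% (CK shoots) and 90.8% (LP shoots) of them were multiples of the TPM of 1 fragment, against 4.95%, 8.14%, 3.55% and 3.90% by chance. Every member given a counting interval is longer than 600 bp. There the step came from a straight line over contig length, and this check was not run. In LP roots the fit score of the steps, 1 at best, was 0.986 at 207 bp and 0.736 at 987 bp. At 1000 bp, 1 TPM was 29.9, 46.4, 23.9 and 32.7 fragments.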

Additional observations from a re-analysis of the deposited data

Results flagged for a closer look

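For 2 members the ratio of LP to CK had opposite signs in roots and shoots, with a size of at least 0.5 in both. At1g17710 (DN26574_c1_g3) had a log2 ratio of 1.72 in shoots and -1.28 in roots, and the acid phosphatase DN28914_c2_g2 had -1.57 in shoots and 0.80 in roots. With 1 library per group these differences between tissues were not tested. The signs stayed as they are when ratios were scaled by seed plant genes, with 1.60 and -0.73 for the former and -1.66 and 1.41 for the latter.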

How the results depend on the processing

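No called ratio of a member changed sign under the alternatives run. Uncalled ratios of roots to shoots did: DN26865_c0_g6 under LP went from -0.43 to between 0.16 and 0.39 under the 4 scalings, and with TPM rescaled over eudicot genes it went from -0.24 to 0.06 under CK and DN27018_c2_g1 from -0.13 to 0.18. Counts moved as follows. In roots, the 1 member called higher became 0 with a minimum of 5 TPM and 2 under each scaling tried (median over all, seed plant or eudicot genes, and TPM rescaled over eudicot genes). Of the 6 tested, the 2 called lower became 1 under each of these scalings and with a log2 threshold of 2. With contigs summed by protein name, 1 of 4 tested was lower. In shoots, the 1 called higher of 11 tested became 0 with a log2 threshold of 2. The 5 called lower became 2 of 11 with that threshold, 2 of 6 tested with summed names and 4 of 10 tested with contigs of at least 400 bp. Between tissues, the 8 lower in roots of 11 tested under CK became 4 of 6 tested with summed names. They became 7 of 10 tested with a minimum of 5 TPM and with contigs of at least 400 bp. With a log2 threshold of 2, and with TPM rescaled over eudicot genes, they became 7 of 11. Under LP, the 1 higher became 0 with a log2 threshold of 2 and with summed names. The 6 lower of 9 tested became 3 of 5 with a minimum of 5 TPM, 3 of 5 with summed names and 5 of 9 with a log2 threshold of 2. Counted per single-member ratio and alternative, 159 values were marked as the same and 61 as moved. That mark is no measure of closeness. With 0.1 TPM added in place of 1 TPM, the ratio of bsn between tissues under LP went from -1.53 to -4.31 and was marked as the same. The eudicot alternatives were chosen after seeing the data. No paired analysis was possible because each group is 1 library and no result comes from a test, and for the same reason no replicate could be left out.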
